A study of Canis lupus familiaris with 25 samples.

Results

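The squamous and sebaceous transcription factors TP63, SOX2, SOX9, PRDM1, OVOL1, KLF4, KLF5, GRHL1, GRHL2 and GRHL3 were followed across canine perianal tumors. These 10 genes were chosen by name, with earlier results of these data known, and all 10 were found among the 24532 genes of the count table. Their shares of called genes are therefore descriptions and no independent test. The samples were archival formalin-fixed, paraffin-embedded (FFPE) tumors of pet dogs, with no experimental treatment or engineered allele in any group, sequenced with QuantSeq 3′, which counts reads near the 3′ end of each transcript. The 10 hepatoid gland adenomas (HGA) are benign tumors of the modified sebaceous glands around the anus, and came from 5 female and 5 male dogs aged 8 to 14 years, 4 of them neutered. The 11 primary apocrine gland anal sac adenocarcinomas (AGASAC) are malignant tumors of the sweat-type glands of the anal sac, and came from 5 female and 6 male dogs aged 8 to 12.5 years, 9 of them neutered. The 4 sublumbal lymph node metastases came from the dogs of primary AGASAC 1 to 4, which were 2 females and 2 males aged 8 to 10 years, 3 of them neutered. The dogs were of various breeds and cross-breeds in every group, and the tissue next to the tumors had been trimmed away before RNA was extracted from whole cross sections.

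Squamous epithelium is renewed from a basal layer in which TP63 switches on the keratins and the adhesion genes that hold the cells to the basement membrane. As cells leave that layer, KLF4, OVOL1, PRDM1 and the Grainyhead-like factors (GRHL1, GRHL2, GRHL3) take part in differentiation and in building the barrier, while SOX9 is a factor of the hair follicle and its sebaceous gland. Simple and glandular epithelium generally has little TP63 outside its basal or myoepithelial cells, but does use GRHL2, KLF5 and OVOL1.

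Total counts on genes were 1562347 to 6389555 in HGA, 2581453 to 4218340 in primary AGASAC and 2857541 to 3289546 in the metastases. Levels below are counts per 1e6 counts on genes (CPM) with TMM scaling over the 25 samples, and 3 counts, the most that a count of 0 allows, correspond to 0.543 to 1.84 CPM. These limits cover counting error only. The labels held against marker genes, since KRT8, KRT19 and PIP of simple gland epithelium were at 227 CPM or more in every primary AGASAC and at 1.62 CPM or less in every HGA, and KRT14 and KRT79 of keratinocytes and sebaceous duct were at 39.1 CPM or more in every HGA and at 9.18 CPM or less in every AGASAC sample. One HGA stood apart: in HGA 10 the summed sebocyte genes were 4510 CPM, against 44327 to 125086 in the other HGA and 1941 to 5758 in primary AGASAC, and its summed proliferation markers were 401 CPM. Counts of genes called were therefore also taken without HGA 10.

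In HGA versus primary AGASAC, TP63, SOX9 and KLF4 were higher in HGA and no member was called higher in AGASAC. These were 3 of the 8 members that passed the filter on low counts, while 25.1% of the 12070 genes tested were called in either direction and 12.6% were called higher in HGA. A gene was called where edgeR's quasi-likelihood test gave an adjusted p (Benjamini-Yekutieli) no higher than 0.05 together with a log2FC (log2 fold change, HGA over AGASAC) of at most −1 or at least 1. The median log2FC of the 8 tested members was 0.19, and that of all genes tested was −0.03. Without HGA 10 the same number of members, 3, was called. With scaling by library size alone, the share of all calls that were higher in HGA was 32.8% in place of 50.2% and the median of all genes moved from −0.03 to −0.33, so log2FC values are read against that median. SOX2 and GRHL3 were below the count filter and were not tested in this comparison. As the samples are bulk tissue, fewer cells of a type and less RNA per cell cannot be told apart in any of these values.

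**Figure D1:**
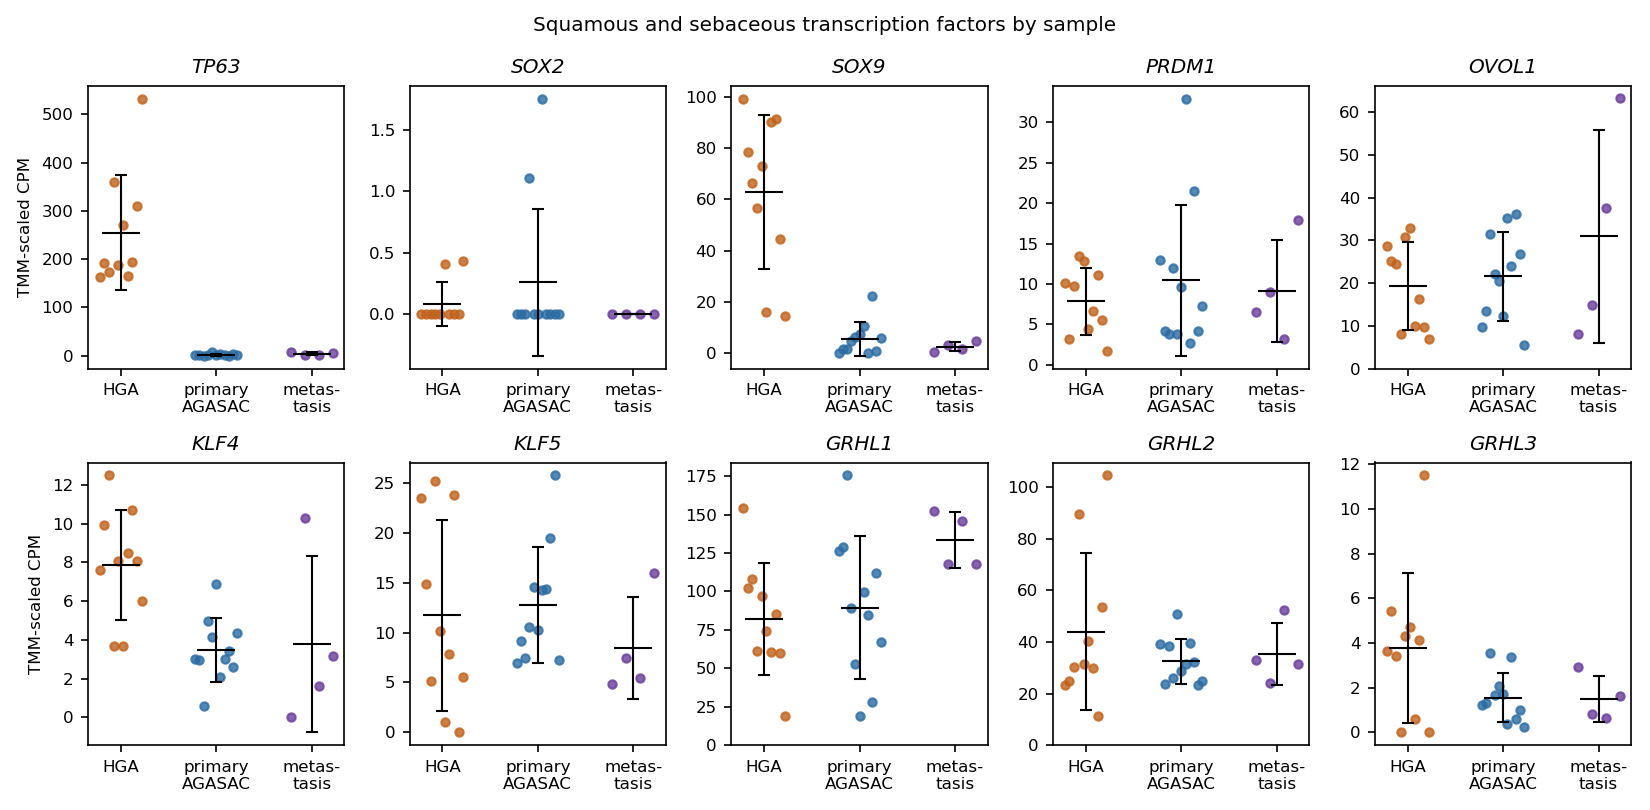
TMM-scaled CPM (vertical axes, a scale for each gene) of the 10 transcription factors in HGA (10 samples), primary AGASAC (11) and metastases (4), with 1 point per sample and the group mean with its SD as lines. TP63 is the gene whose HGA points lie above all AGASAC points, SOX9 and KLF4 are higher in HGA with overlapping points, and the points of PRDM1, OVOL1, KLF5, GRHL1 and GRHL2 share their range.

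TP63, the master regulator of basal keratinocytes, separated the tumor types completely. HGA had 162 CPM at the lowest, 193 at the median and 532 at the highest, with a mean of 255 ± 119 CPM (SD, n = 10). Primary AGASAC had 0, 1.63 and 6.94 CPM in the same order, with a mean of 2.02 ± 2.12 CPM (SD, n = 11), which is at most 20 counts in a sample and 0 counts in 2 samples. No HGA overlapped any AGASAC, a pattern that 4.37% of all genes tested showed in this direction. With so few counts in AGASAC, TP63 passed the filter on low counts through HGA, so it could only be called higher there. The log2FC was 7.01 (SE 0.52, edgeR adjusted p = 2.24e-09), which is a 129-fold higher level in HGA. Counts were summed per gene, so the isoforms of TP63 with and without its transactivation domain are not told apart. The highest levels were in HGA 10 (532 CPM) and HGA 4 (360 CPM), which were also the HGA with the highest summed proliferation markers (401 and 284 CPM, against 33.1 to 91.3 in the other 8), and the part of that difference in TP63 was not tested.

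TP63 was compared within the sample batches that the study's records give. The sequencing files fall into naming series A, with 9 HGA and 3 primary AGASAC, and B, with 1 and 7. No series was given for AGASAC 4, which was left out of the series A values. RNA was extracted in batches of which 5, 6 and 8 held at least 2 of each tumor. The log2FC was 7.60 within naming series A, and 7.74, 7.05 and 6.00 within extraction batches 5, 6 and 8, where the edgeR adjusted p of batch 5 was 0.0621. TP63 was thus higher in HGA by a log2FC of 6.00 or more within each of these batches, and the call was lost in batch 5, which holds 3 HGA and 3 primary AGASAC.

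SOX9, a stem cell factor of the hair follicle that was called as well, had 14.6 CPM at the lowest, 69.5 at the median and 99.1 at the highest in HGA, and a mean of 62.9 ± 30.0 CPM (SD, n = 10). In primary AGASAC it had 0, 4.73 and 22.4 CPM, and a mean of 5.63 ± 6.56 CPM (SD, n = 11). The groups overlapped because HGA 10 (14.6 CPM) and HGA 6 (16.1 CPM) lay below AGASAC 9 (22.4 CPM), while the other 8 HGA had 44.5 CPM or more. Primary AGASAC had 0 to 78 counts of SOX9, with too few samples high enough to pass the filter on low counts without HGA. SOX9 was thus tested through HGA, the type where it was higher, which limits what its call shows. The log2FC of SOX9 was 3.48 (SE 0.59, edgeR adjusted p = 0.000376). It was 2.46, 3.79 and 4.38 within extraction batches 5, 6 and 8, with a call in batch 6 alone (adjusted p = 0.896, 0.0114 and 0.554). Within naming series A, which held AGASAC samples with 0 to 1.63 CPM, it was 6.02 (adjusted p = 0.000259).

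SOX2, a related factor of stem cells and of squamous carcinomas, was hardly detected. It had 0 counts in 8 of 10 HGA, in 9 of 11 primary AGASAC and in all 4 metastases. The highest values were 5 counts in AGASAC 7 and 4 counts in AGASAC 4, and the HGA reached 2 counts. A difference between the tumors was not detectable at this depth.

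KLF4, a factor of the suprabasal and barrier-forming layers, was higher in HGA by a small margin. HGA had 3.67, 8.08 and 12.5 CPM (lowest, median and highest), with a mean of 7.88 ± 2.85 CPM (SD, n = 10). Primary AGASAC had 0.593, 3.02 and 6.89 CPM, with a mean of 3.47 ± 1.64 CPM (SD, n = 11). The log2FC was 1.2 (SE 0.33, edgeR adjusted p = 0.0422), and the groups overlapped, with HGA 4 (3.69 CPM), HGA 6 (3.67 CPM) and HGA 10 (6.02 CPM) inside the range of AGASAC. This call was close to the threshold, since leaving out a single tumor removed it in 15 of 21 cases, with adjusted p from 0.0179 to 0.103. Within extraction batches 5, 6 and 8 the log2FC was 1.85, 0.55 and 0.87, and within naming series A it was 1.90, with no call in any of them. Endothelial cells also express KLF4, and their 10 markers summed to 247 to 702 CPM in HGA and to 113 to 434 CPM in primary AGASAC, with 3 of 8 tested markers (CLDN5, TIE1, CDH5) called higher in HGA, none lower and none of the 10 at 0 in all samples of a group. Their part in the KLF4 difference was not tested.

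KLF5, the relative of KLF4 found in dividing basal and gland cells, was not called. It had 0, 9.07 and 25.2 CPM in HGA and 6.93, 10.6 and 25.8 CPM in primary AGASAC, and the log2FC was −0.09 (SE 0.49, edgeR adjusted p = 1). The samples differed in spread, since HGA 9 had 0 counts and HGA 6 had 1.02 CPM while HGA 1, HGA 4 and HGA 8 had 23.5, 25.2 and 23.8 CPM. The interval that the standard error gives is wide for this gene, so a moderate difference in either direction was not detectable.

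**Figure D2:**
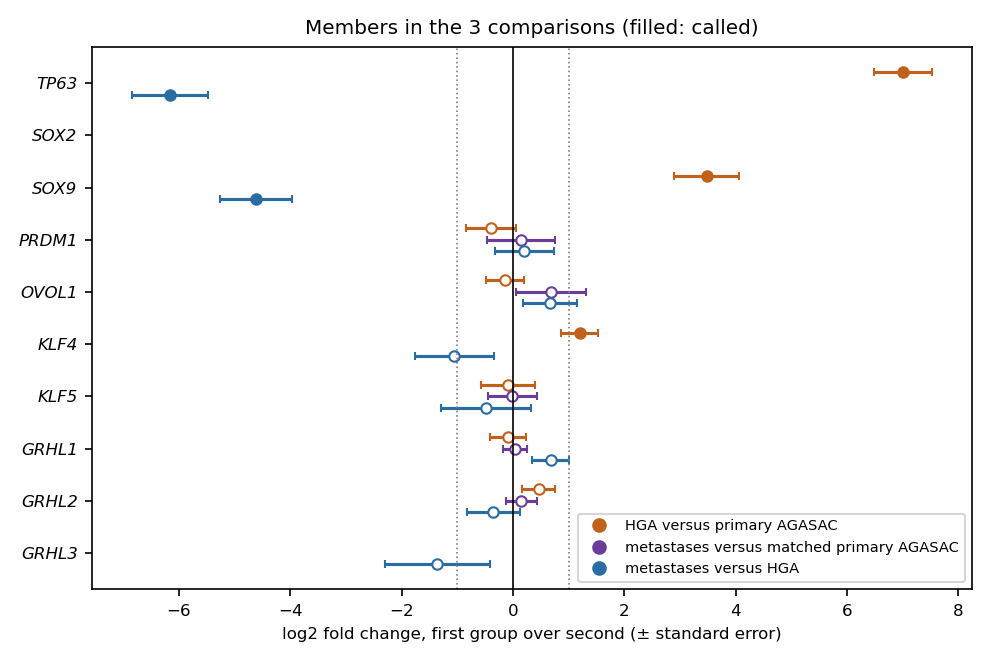
log2 fold change (horizontal axis, first group over second) of each transcription factor in the 3 comparisons, as points with the standard error as bars, filled where the gene was called and absent where it was not tested. TP63 (7.01 in HGA over primary AGASAC and −6.16 in metastases over HGA) and SOX9 (3.48 and −4.61) lie far from 0, KLF4 lies at 1.2, and GRHL1, GRHL2, OVOL1, PRDM1 and KLF5 lie within 1 of it in all 3.

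PRDM1 and OVOL1 are repressors that act when epithelial cells stop dividing and differentiate, and PRDM1 is also a factor of sebaceous gland cells and of plasma cells. PRDM1 had 1.72, 8.19 and 13.5 CPM in HGA and 2.68, 7.29 and 32.9 CPM in primary AGASAC (lowest, median and highest). Its log2FC was −0.39 (SE 0.45, edgeR adjusted p = 1). The groups overlapped over most of their range, and AGASAC 7 (32.9 CPM) and AGASAC 9 (21.5 CPM) were the samples above all HGA. Both of these had the highest OVOL1 of the primary AGASAC too (35.3 and 36.1 CPM), and the highest SOX9 (10.8 and 22.4 CPM). The 10 plasma cell markers summed to 254 to 975 CPM in HGA and 330 to 908 CPM in primary AGASAC, with 584 CPM in AGASAC 7 and 330 CPM in AGASAC 9. That sum was carried by SDC1 (mean 477 CPM in HGA and 13 CPM in AGASAC) and XBP1 (31.3 and 457 CPM), which moved in opposite directions and are also expressed by epithelium. Of the markers more specific to plasma cells, JCHAIN had a median of 26.1 CPM in HGA and 67.5 CPM in AGASAC (log2FC −0.99, SE 0.42, edgeR adjusted p = 0.588), and IRF4 had medians of 1.08 and 3.73 CPM. T cells use PRDM1 as well, and their 8 markers summed to 122 CPM in AGASAC 7, 106 CPM in AGASAC 6 and 58.5 CPM in AGASAC 9, against 16.7 to 43.1 CPM in the other primary AGASAC and 2.45 to 50.9 CPM in HGA. None of the plasma cell markers was at 0 in all primary AGASAC and 1 was at 0 in all HGA, where TNFRSF17 reached at most 1 count. The part of these cells in the PRDM1 levels was not tested.

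OVOL1 had 6.88, 20.5 and 32.9 CPM in HGA and 5.59, 22.2 and 36.1 CPM in primary AGASAC. The log2FC was −0.14 (SE 0.34, edgeR adjusted p = 1), and both groups covered nearly the same range. Among the HGA, samples 4, 7, 9 and 10 had 6.88 to 10.0 CPM and the other 6 had 16.4 CPM or more.

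The Grainyhead-like genes, which open the chromatin of epithelial genes and drive junction and barrier genes, were present in both tumors. GRHL1 had 18.9, 79.6 and 154 CPM in HGA and 18.6, 89.2 and 176 CPM in primary AGASAC. Its log2FC was −0.09 (SE 0.33, edgeR adjusted p = 1). The range was thus nearly the same, with HGA 10 (18.9 CPM), AGASAC 6 (18.6 CPM) and AGASAC 9 (27.8 CPM) at the low end.

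GRHL2 had 11.1, 30.8 and 105 CPM in HGA and 23.2, 31.5 and 51.0 CPM in primary AGASAC. The log2FC was 0.46 (SE 0.30, edgeR adjusted p = 1). The medians were close and the spread was not, as the SD was 30.4 CPM in HGA and 8.70 CPM in AGASAC. HGA 10 (105 CPM) and HGA 4 (89.8 CPM) had the highest GRHL2 of all samples, as they had for TP63. Without HGA 10 the log2FC of GRHL2 was 0.22.

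GRHL3, which is needed for the skin barrier and wound closure, was near the counting limit. It had 0, 3.86 and 11.5 CPM in HGA and 0.243, 1.31 and 3.56 CPM in primary AGASAC, with at most 27 and 12 counts. HGA 4 and HGA 10, the samples highest in GRHL2, had 0 counts of GRHL3. Without a filter on low counts its log2FC was 1.24 (SE 0.66, edgeR adjusted p = 1).

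**Figure D3:**
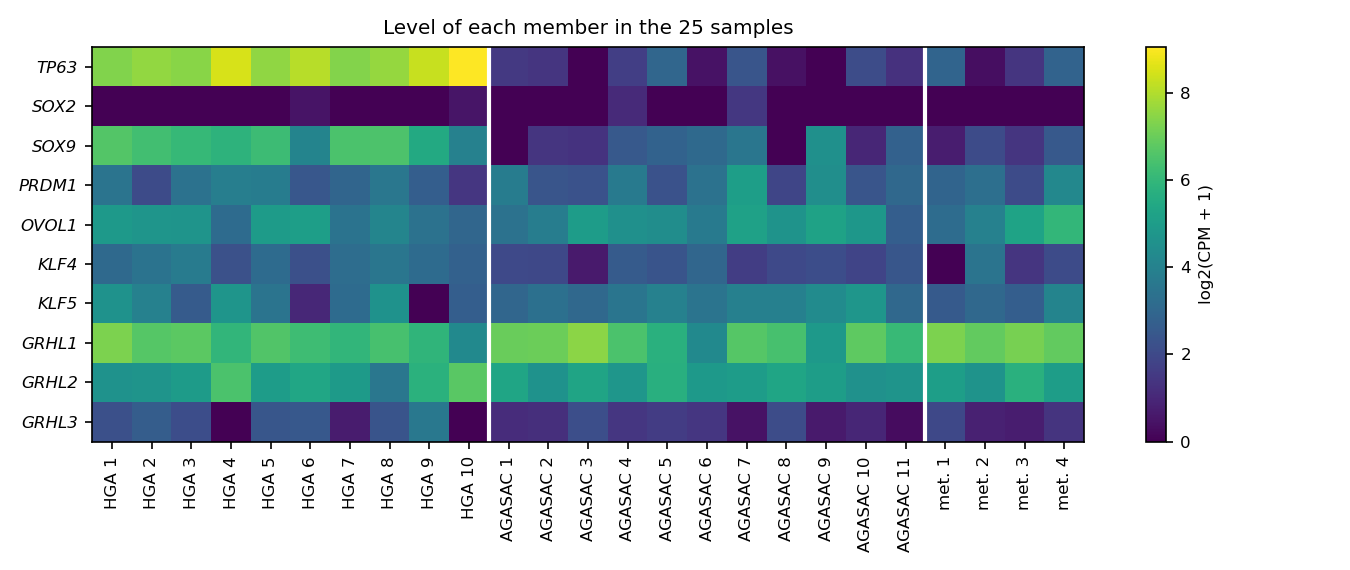
Level of each transcription factor (rows) in each of the 25 samples (columns, grouped by tumor type with white lines between groups) as log2(CPM + 1), from dark (0) to bright. The TP63 row is bright in HGA and dark in AGASAC and metastases, the SOX9 row is mostly so but is brighter in AGASAC 9 (22.4 CPM) than in HGA 6 and HGA 10, HGA 10 has the brightest TP63 cell and a dim GRHL1 cell, and the SOX2 row is dark throughout.

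The metastases were compared with the primary AGASAC of the same 4 dogs to see whether the members changed between the anal sac and the lymph node. Of the 5 members that passed the filter (PRDM1, OVOL1, KLF5, GRHL1 and GRHL2), edgeR called 0, beside 0% of the 12629 genes tested. At an unadjusted edgeR p under 0.05 there were 0 of the 5 members and 145 of all genes. DESeq2 called 5 genes (0.0226%) and edgeR with the dogs as a block called 1 (0.00792%), and none of these was a member. The standard errors given next are of the fit without the block. With the dogs as a block they were smaller, at 0.31 for OVOL1, 0.43 for PRDM1, 0.34 for KLF5, 0.16 for GRHL1 and 0.19 for GRHL2. With 4 pairs, differences of the size of these standard errors were not detectable in either fit.

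OVOL1 had a log2FC of 0.69 (SE 0.63, metastasis over primary), which was 0.07 without metastasis 4 and up to 1.03 without another sample. It was 8.11, 14.9, 37.6 and 63.3 CPM in metastases 1 to 4 and 9.64, 13.4, 31.4 and 22.2 CPM in the primary tumors of the same dogs. The dogs kept a similar order at both sites, and dog 4 alone had a metastasis well above its primary tumor. GRHL1 was 152, 118, 146 and 118 CPM in the metastases and 126, 129, 176 and 89.2 CPM in the primary tumors, and its log2FC was 0.04 (SE 0.22). GRHL2 was 33.1, 24.1, 52.4 and 31.6 CPM against 39.2, 23.5, 38.5 and 26.1 CPM, with a log2FC of 0.15 (SE 0.28). Both Grainyhead-like genes thus stayed within the range of the primary tumors, apart from the GRHL2 level of metastasis 3.

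PRDM1 had the higher level in the metastasis in dogs 2 and 4 and in the primary tumor in dogs 1 and 3, with 6.49, 9.02, 3.22 and 17.9 CPM in the metastases and 13.0, 4.25, 3.85 and 12.0 CPM in the primary tumors. Its log2FC was 0.15 (SE 0.61). Lymph node tissue holds lymphocytes, and the summed T cell markers were higher in the metastasis in 4 of 4 dogs, with 48.0, 49.3, 73.3 and 52.4 CPM against 27.1, 28.4, 24 and 43.1 CPM. The summed B cell markers were higher in 4 of 4 as well, with 41.9, 22.6, 28.9 and 31.3 CPM against 38.9, 15.4, 14.5 and 23.6 CPM. The summed plasma cell markers were 736, 681, 570 and 629 CPM against 759, 504, 570 and 704 CPM. The part of these cells in the levels of the members was not tested. KLF5 was 4.87, 7.43, 5.47 and 16.0 CPM against 6.93, 9.15, 7.41 and 10.6 CPM, with a log2FC of −0.01 (SE 0.44). It was lower in the metastasis in 3 of 4 dogs.

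The members left untested in this comparison were low at both sites. TP63 was 6.49, 0.265, 1.61 and 6.39 CPM in metastases 1 to 4 and 1.81, 1.63, 0 and 2.22 CPM in their primary tumors, which is 1 to 20 counts and 0 to 8 counts. SOX9 was 0.649, 3.18, 1.61 and 4.79 CPM against 0, 1.63, 1.48 and 4.73 CPM. All 4 metastases lay below the lowest HGA of both genes (162 and 14.6 CPM). KLF4 was 0, 10.3, 1.61 and 3.19 CPM against 3.01, 2.94, 0.593 and 5.00 CPM, and GRHL3 was 0.643 to 2.92 CPM against 1.21 to 3.56 CPM.

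In metastases versus HGA, which shares its HGA with the first comparison and its metastases with the second, TP63 and SOX9 were lower in the metastases. They were 2 of the 9 members tested, while 16.1% of 13195 genes were called in either direction and 8.4% lower in the metastases. Their log2FC (metastasis over HGA) was −6.16 for TP63 (SE 0.68, edgeR adjusted p = 4.88e-05) and −4.61 for SOX9 (SE 0.65, edgeR adjusted p = 0.000518). Neither gene overlapped between the groups, which held for 7.38% of all genes tested in this direction. The metastases had 1 to 20 counts of TP63 and 2 to 15 counts of SOX9. Both genes thus passed the filter on low counts through HGA, so they could only be called lower in the metastases. Without HGA 10 the members called were again 2, with log2FC of −5.96 and −4.73. The median log2FC was −0.49 over the 9 members tested and −0.02 over all genes. With library size alone the share of all calls that were higher in the metastases was 63.7% in place of 47.8%, the median of all genes moved to 0.26, and TP63 and SOX9 were at −5.93 and −4.31.

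Of the other members in this comparison, KLF4 had a log2FC of −1.05 (SE 0.71) and GRHL3 of −1.36 (SE 0.94), and both had an edgeR adjusted p of 1. The value of KLF4 was −2.28 without metastasis 2, its highest metastasis, and −0.64 without metastasis 1, its lowest. GRHL1 was 118 to 152 CPM in the metastases, at the upper end of the HGA range of 18.9 to 154 CPM, with a log2FC of 0.68 (SE 0.33, unadjusted edgeR p = 0.0535). OVOL1 (0.67, SE 0.49), PRDM1 (0.20, SE 0.53), GRHL2 (−0.35, SE 0.48) and KLF5 (−0.49, SE 0.81) were not called either.

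Genes of the programs that these factors are known to serve were described from 6 lists, beside the same 25.1% of all genes that were called in HGA versus primary AGASAC. The lists too were chosen with earlier results of these data known, so their shares are descriptions. The list medians given were the same with genes of at most 3 counts in a group set to the fold that this limit allows. Some genes had almost no counts in a tumor type and passed the filter through the other type alone. Such genes could only be called higher in the type that let them pass. Of 20 basal keratinocyte genes, 16 were tested, 13 were higher in HGA, 1 was lower and 2 were not called, with a median log2FC of 3.62. TRIM29, a gene of basal keratinocytes, had 166 ± 68.1 CPM in HGA (SD, n = 10) and at most 1 count in any primary AGASAC. DST, which anchors keratin to the basement membrane, was the gene that was lower, with a log2FC of −1.77 (SE 0.32, edgeR adjusted p = 0.000919).

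The programs above the basal layer were in part too low to be tested. Of 21 suprabasal and cornified layer genes found, 7 were tested, 5 were higher in HGA and none was lower, with a median log2FC of 1.96. Of the called genes, DSG1 and SPINK5 had at most 1 and 5 counts in any primary AGASAC, so they passed the filter through HGA alone. TGM5, a transglutaminase of the cornified envelope, had 222 ± 119 CPM in HGA (SD, n = 10) and 0 counts in all 11 primary AGASAC. Of 19 sebocyte genes, 15 were tested, 10 were higher in HGA and none was lower, with a median log2FC of 3.47. KRT79, the keratin of the sebaceous duct, had 1599 ± 687 CPM in HGA and 0 counts in all primary AGASAC, and PPARG, the factor that drives sebocyte differentiation, was not called, with 108 ± 50.2 against 62.4 ± 27.8 CPM and a log2FC of 0.82 (SE 0.28, edgeR adjusted p = 0.189). PPARG was named after its values were seen. HGA 10 had 39.1 CPM of KRT79, the lowest of the HGA, and the highest TP63. With at least 10 counts required in every sample, 4 basal keratinocyte, 0 suprabasal and 4 sebocyte genes were called. That filter takes genes with almost no counts in AGASAC, such as TRIM29, DSG1, TGM5 and KRT79, out of the test. Fewer calls under it therefore do not mean that a difference was absent.

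**Figure D4:**
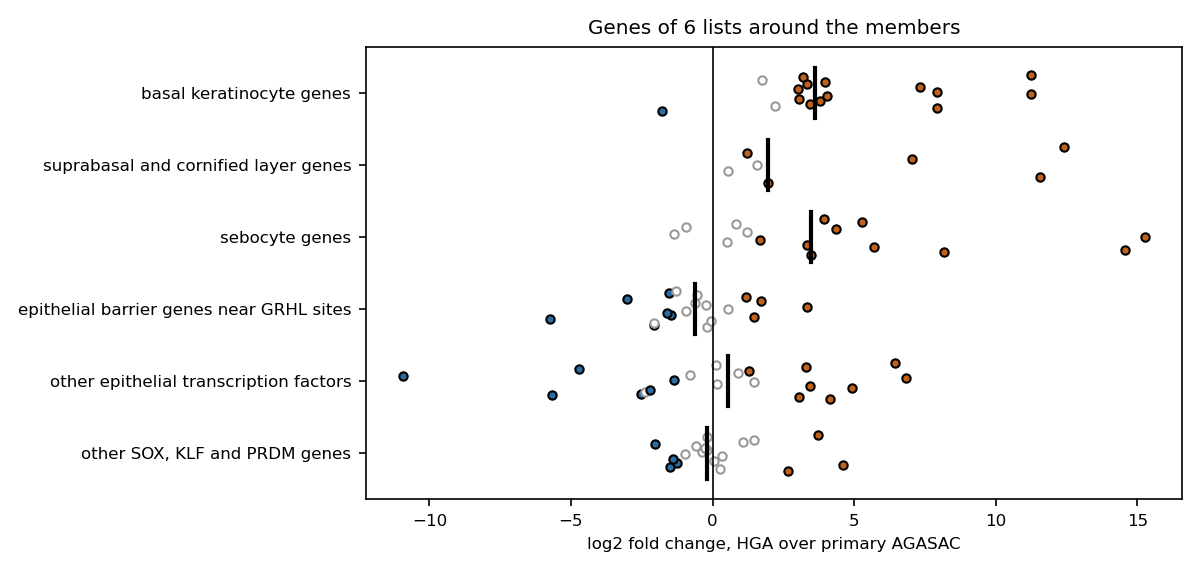
log2 fold change of HGA over primary AGASAC (horizontal axis) for the tested genes of 6 lists, with a point per gene, orange where called higher in HGA, blue where called lower, open where not called, and a bar at the list's median. The basal keratinocyte (3.62), sebocyte (3.47) and suprabasal (1.96) medians lie to the right of 0 and those of the barrier genes (−0.61) and the other SOX, KLF and PRDM genes (−0.20) to the left, and fitted values of genes with at most 3 counts in a group, such as KRT79 and SPDEF, depend on the fit and are no measure of their size.

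The lists closest to the Grainyhead-like genes and to the families of the members held genes called in both directions, and the barrier genes leaned toward AGASAC. Of 20 epithelial barrier genes that lie near Grainyhead-like binding sites, 19 were tested, 4 were higher in HGA and 6 were lower, with a median log2FC of −0.61. Their summed CPM was 1637 to 5049 in HGA (median 4296) and 3953 to 7057 in primary AGASAC (median 5165). The tight junction gene CLDN7 was lower in HGA, with a log2FC of −5.73 (SE 0.49, edgeR adjusted p = 1.78e-08). Beside these 10 called genes of 19, 0 of the 2 tested Grainyhead-like genes were called, and whether that differs was not tested.

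Among 28 other epithelial transcription factors, 20 were tested, 8 were higher in HGA and 6 were lower, with a median log2FC of 0.54. SPDEF, a factor of secretory gland cells, had 152 ± 61.8 CPM in primary AGASAC and at most 1 count in any HGA. Of 34 other SOX, KLF and PRDM genes found, 18 were tested, 3 were higher in HGA and 4 were lower, with a median log2FC of −0.20. KLF15, a factor of lipid and amino acid metabolism, had a log2FC of 4.61 (SE 0.52) and SOX13 one of −2.05 (SE 0.31).

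Without HGA 10 the calls in HGA versus primary AGASAC were 14 higher and 1 lower for basal keratinocyte genes, 6 and 0 for suprabasal genes and 10 and 1 for sebocyte genes. They were 4 and 8 for barrier genes, 9 and 7 for other epithelial factors and 3 and 4 for other SOX, KLF and PRDM genes. In metastases versus HGA, with 16.1% of all genes called, the same lists gave 14 basal keratinocyte genes lower and 1 higher of 19 tested. They gave 5 suprabasal genes lower of 14 tested and 8 sebocyte genes lower of 15 tested, with none higher. The suprabasal count was 3 in place of 5 in 11 of the 14 fits that left out a sample, which were those without any 1 of the 4 metastases or without HGA 1, 2, 3, 4, 5, 7 or 8. Barrier genes were higher in 6 cases of 20 tested with none lower. Other epithelial factors were higher in 5 and lower in 9 of 25, and other SOX, KLF and PRDM genes were higher in 1 and lower in 3 of 20. Between metastases and matched primary tumors, no gene of the 6 lists was called.

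Within the 10 HGA, HGA 4, 6, 9 and 10 had the highest TP63 and the highest GRHL2, and their GRHL1 was 18.9 to 74.1 CPM, against 85.0 CPM or more in 5 of the other 6. Pearson's r and Spearman's rho of log2(CPM + 1) were computed for the 36 pairs of the 9 detected members in HGA and in primary AGASAC, which makes 72 relations, and p-values are two-sided from 100000 permutations. The relations were examined after the levels were known. Of the 72, 16 had an unadjusted Pearson p under 0.05, 3 passed a Benjamini-Hochberg adjusted p of 0.05 by Pearson and 1 by Spearman, and these 4 were all in HGA.

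TP63 and GRHL2 were positively related across the HGA, with r = 0.849 (permutation p = 0.00084, adjusted 0.0353) and rho = 0.745 (permutation p = 0.0175, adjusted 0.293). TP63 ran against GRHL1, with r = −0.855 (permutation p = 0.00203, adjusted 0.0487) and rho = −0.709 (permutation p = 0.0265, adjusted 0.293). Both rest in part on HGA 4 and HGA 10, the samples farthest from the median of TP63, without which r was 0.58 and −0.595. Within naming series A, which leaves out HGA 10, r was 0.768 and −0.664, and no extraction batch held more than 3 HGA.

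OVOL1 and GRHL1 were positively related, with r = 0.776 (permutation p = 0.00098, adjusted 0.0353) and rho = 0.697 (permutation p = 0.0302, adjusted 0.293), and r was 0.706 without HGA 4 and HGA 10 and 0.754 within naming series A. SOX9 ran against GRHL2 by rank, with rho = −0.915 (permutation p = 0.00048, adjusted 0.0346) and r = −0.667 (permutation p = 0.0355, adjusted 0.209). Without HGA 6 and HGA 10, r of that pair was −0.762, and within naming series A it was −0.474. TP63 and SOX9, the members with the largest differences between tumors, had r = −0.793 (permutation p = 0.0108, adjusted 0.192) and did not pass the adjustment. CPM share a total within each sample, and the summed sebocyte genes, which were 44327 to 125086 CPM outside HGA 10, moved within HGA as well. The part of the sebocyte genes in these relations was not tested. The relations also pool both sexes, with TP63 at 166 to 532 CPM in males and 162 to 194 CPM in females. GRHL2 was 29.8 to 105 CPM in males and 11.1 to 31.3 CPM in females. The males had the same order in both genes, while HGA 8, the female highest in TP63 (194 CPM), had the lowest GRHL2 (11.1 CPM). The part of sex in these relations was not tested.

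**Figure D5:**
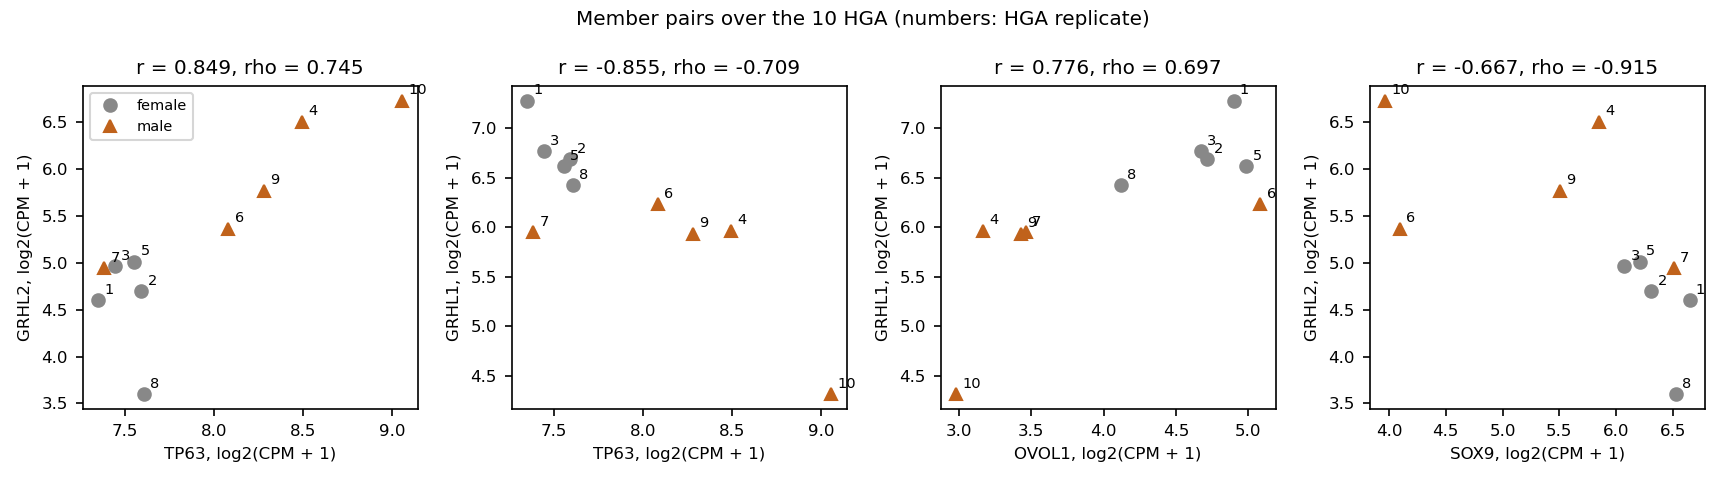
Levels of 4 pairs of transcription factors over the 10 HGA, as log2(CPM + 1) on both axes, with 1 point per sample numbered by replicate, circles for female and triangles for male dogs. GRHL2 is higher where TP63 is higher (r = 0.849), GRHL1 is lower where TP63 is higher (r = −0.855) and higher where OVOL1 is higher (r = 0.776), GRHL2 is lower where SOX9 is higher (rho = −0.915), HGA 10 lies at an end of all 4 plots, and the 5 males reach farther along TP63 and GRHL2 than the 5 females.

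The 4 HGA with the highest TP63 and GRHL2 were those of male dogs. This was noticed after the values were seen, so the 9 members were compared between the sexes given by the labels in both tumors, by 18 exact two-sided permutation tests, of which 6 had an unadjusted p under 0.05, all in HGA, and none passed the Benjamini-Hochberg adjustment. GRHL1 was 18.9 to 74.1 CPM in the 5 males (mean 55.1 ± 21, SD) and 85.0 to 154 CPM in the 5 females (mean 109 ± 26.6, SD), with no overlap (exact permutation p = 0.00794, the smallest that 5 against 5 allows, adjusted 0.143). The share of all genes that separate the sexes of these HGA in this way was not computed, so how unusual this is cannot be said. TP63 was 166 to 532 CPM in males and 162 to 194 CPM in females (exact permutation p = 0.0397, adjusted 0.143). GRHL2 was 29.8 to 105 CPM in males and 11.1 to 31.3 CPM in females (exact permutation p = 0.0238, adjusted 0.143). SOX9, KLF4 and OVOL1 had lower means in males, each with an adjusted p of 0.143.

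Extraction batch and neutering were unevenly spread over the sexes. Extraction batch 5 was the one batch that held HGA of both sexes, with males 4 and 9 and female 8. There GRHL1 was 61.5 and 60.2 CPM in the males and 85.0 CPM in the female, TP63 was 360 and 310 CPM against 194 CPM, and GRHL2 was 89.8 and 53.5 CPM against 11.1 CPM. These values had the direction of the whole group, in 3 samples. Of the females 3 were neutered and of the males 1, HGA 10. GRHL1 was 108 and 97.1 CPM in the 2 intact females and 60.2 to 74.1 CPM in the 4 intact males, and it was 85.0 to 154 CPM in the neutered females and 18.9 CPM in the neutered male. GRHL1 was thus lower in the males among the intact dogs. Among the neutered dogs the male side was HGA 10 alone, the sample that stood apart, so no pattern is read there. The part of neutering was not tested. In primary AGASAC the adjusted p of all 9 members was 0.189 or more.

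Genes whose level followed a member most closely were sought among 12173 genes with a mean of at least 5 CPM, as the Pearson r of log2(CPM + 1) over the 25 samples after each group's mean was subtracted. These are descriptions without a test, of samples that share library totals. For TP63 the closest were NABP1 (r = 0.801), FNDC10 (0.763) and LOC102154138 (0.691), and for SOX9 they were LOC481473 (0.800), ITGA5 (0.799) and ASAH1 (0.787). GRHL1 had the closest companion of all members, CYB5R3 (0.925), followed by LOC102155476 (0.804) and ADGRG1 (0.802). GRHL2 was followed by NFRKB (0.792), SIRT6 (0.777) and LOC102152877 (0.767).

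For OVOL1 the closest genes were PPP2R2B (0.808), the cell adhesion gene CDH1 (0.741) and COQ2 (0.728). For KLF5 they were NFATC1 (0.859), ACADL (0.830) and IFFO2 (0.798). KLF4 was followed by SERPING1 (0.749), ADGRA2 (0.722) and MPZL1 (0.670), and PRDM1 by FMNL1 (0.742), NPNT (0.730) and PRRG1 (0.723). No member was among the 3 closest genes of another member.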

How the data were processed

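QuantSeq 3′ libraries of total RNA from 25 FFPE tumors were analysed. The authors trimmed reads with Cutadapt, aligned them to CanFam3.1 with STAR and counted them with featureCounts, first on the annotation and then, for unassigned reads, with 3′ ends extended by 2 kb. Multi-mapped reads were split evenly, so genes with close copies are less certain. The deposited table holds whole counts per gene and sample, and the authors' normalized counts and their mean over samples as a signal. It also holds a log2 fold change with its standard error, and a p-value with its adjusted value, which are the authors' own deposited comparison and were not used. No column of a sample was left unused. Genes are named as in the table, 8449 of them by LOC number, and no coordinates are given because no annotation of the build was used here.

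Counts were fitted in edgeR 4.0.16 (R 4.3.3) with filterByExpr (minimum count 10, minimum total 15), TMM and the quasi-likelihood test over all genes, without covariates. Standard errors are the log2FC over the root of F. CPM have TMM factors over all 25 samples. DESeq2 1.42.0 was an alternative, the edgeR and DESeq2 fits were tested on simulated counts, and permutation tests used scipy 1.17.1. Depth was 1562347 to 6389555 counts per sample, and 0 pairs of samples in a group differed by as little as sampling noise. The metastasis and the primary tumor of each of 4 dogs share the animal, and deviated together from their group means (r across genes 0.411 to 0.688 in 4 of 4).

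For HGA and primary AGASAC the labels number the tumors without stating that each is of a separate dog, so p-values measure the spread between samples. The members, the 6 lists and the marker lists were chosen with earlier results of these data known. Of each of the 6 lists the called genes with the largest rise and the largest fall were named, beside markers that a result turns on and the 3 genes most like a member, and some genes that this rule names are not reported here. The relations between members and the comparison of sexes were chosen after values were seen. Alternatives were other scalings, filters, tests and adjustments, batches, a replicate block and leaving out each sample.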

Additional observations from a re-analysis of the deposited data

Results flagged for a closer look

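GRHL3 in HGA 9 was 11.5 CPM (27 counts), and lay apart from the other 9 HGA, whose levels were 0 to 5.42 CPM. The gap between this sample and the next was large against the range of the group by Dixon's criterion. It was the single such value among 19 groups of samples screened, and chance gives about 1 in 20.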

How the results depend on the processing

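In HGA versus primary AGASAC, where 3 members, 3032 genes of the table and 58 genes of the 6 lists were called, TP63 kept its call in 32 of 33 alternatives (log2FC 6.00 to 7.74), SOX9 in 31 of 33 (2.46 to 6.02) and KLF4 in 8 of 33 (adjusted p 0.00424 to 1). TP63 and SOX9 kept theirs in 21 of 21 in metastases versus HGA. KLF4 was called by DESeq2 and with Benjamini-Hochberg adjustment, and not with RLE (adjusted p = 0.051) or with library size alone (log2FC 0.90, where the median of all genes was −0.33, edgeR adjusted p = 0.255). With at least 10 counts in every sample, which removes TP63, SOX9 and KLF4 from the test, 0 members, 1452 genes and 25 list genes were called in HGA versus primary AGASAC, and 0 members and 1153 genes in metastases versus HGA.

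With the few samples of extraction batch 5, 0 members, 262 genes and 20 list genes were called and KLF5 was at 0.24. In batch 6 there were 637 genes and 34 list genes, with OVOL1 at 0.73, KLF5 at 0.67, GRHL1 at 1.15 and GRHL2 at −0.02, and in batch 8 there were 1 member, 338 genes and 15 list genes, with OVOL1 at 0.59 and GRHL2 at −0.09. Naming series A gave 0.31 for PRDM1, 0.20 for OVOL1 and 0.69 for KLF5, and all 15 AGASAC gave 0.06 for KLF5. None of these log2FC of uncalled members was called there, and the cause of their change of sign was not tested. DESeq2 called 5 genes in metastases versus matched primary tumors, all 11 primary AGASAC gave −0.21 for PRDM1, and Benjamini-Hochberg adjustment gave 3536 genes in place of 2124 in metastases versus HGA.

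Leaving out a sample gave 2 to 3 members in HGA versus primary AGASAC, log2FC of −0.22 to 0.05 for GRHL1 and of −0.28 to 0.06 for KLF5. In metastases versus matched primary tumors it gave 0.07 to 1.03 for OVOL1, −0.40 to 0.44 for PRDM1, −0.52 to 0.18 for KLF5, −0.10 to 0.21 for GRHL1 and −0.11 to 0.28 for GRHL2, and in metastases versus HGA −0.35 to 0.49 for PRDM1, 0.06 (without metastasis 4) to 1.0 for OVOL1, −2.28 to −0.64 for KLF4, −1.87 to −0.99 for GRHL3 and 3 to 6 suprabasal genes called.

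With the replicate block of the 4 dogs, which pairs metastasis and primary tumor, 1 gene and 0 members were called, and OVOL1 was at 0.46. HGA share no more than a number with AGASAC (r −0.0457 to 0.0259) or with metastases (−0.0814 to 0.0544), and with that block 2 members were called, TP63 at 7.24 and SOX9 at 4.02, while metastases versus HGA gave 762 genes and −0.10 for PRDM1. At 3 counts, 0.543 to 1.84 CPM, the depth limits SOX2, GRHL3 and the levels of TP63 and SOX9 in AGASAC.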
